A study of Mus musculus with 2 samples.

Results

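The cells described here are a set of tumour-like cells from mouse lung tumours, defined by high counts of Csmd3, Robo2, Mme and Adgrl3. They were chosen by rule from both deposited libraries pooled. Cells were kept with at least 5000 unique molecular identifiers (UMIs, the count of distinct RNA molecules), at most 20% mitochondrial UMIs, and under 5 UMIs per 10000 of Lyz2 and of the summed C1qa, C1qb and C1qc, which mark macrophages. They also had no UMI of Ptprc or Cd3e, which mark leukocytes and T cells, and at least 1 UMI of Hmga2, Tnfrsf12a or Igf2bp2. Cells with at least 10 UMIs per 10000 of the summed mitotic genes Top2a, Cenpf, Ube2c, Ccnb1 and Cdc20 were dropped as cycling, and the top 10% of the remainder by the summed Csmd3, Robo2, Mme and Adgrl3 per 10000 UMIs were taken. Of 24830 deposited cells, 9389 passed the gate, 7324 of these were not cycling, and 732 were selected, 303 from the control library and 429 from the knockdown library. The 6592 non-cycling gated cells that were not selected are called the other tumour-like cells.

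Both libraries came from tumours of LLC, the mouse Lewis lung carcinoma line, labelled as lung cancer xenografts and profiled on the 10x Genomics platform. The control group (titled NC) was given only as a control, and the knockdown group (titled SH) carried a short hairpin RNA against Gfpt2, an enzyme that starts the hexosamine pathway. The study asked how this knockdown bears on the immune microenvironment and on signals between cells. Each group had 1 library, and the host strain, age, time of growth and number of tumours pooled are not given in the sources used here, so cells of a library are not replicates and no test was run.

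Csmd3 encodes a large transmembrane protein with CUB and sushi domains, and Robo2 is a receptor for Slit ligands that guides growing axons and migrating cells. Mme (neprilysin, CD10) is a surface peptidase that cleaves small signalling peptides, and Adgrl3 (latrophilin-3) is an adhesion receptor that binds teneurins and FLRT proteins on neighbouring cells. Among the other markers given for these cells, Sema3c is a secreted semaphorin and Enpp2 (autotaxin) is a secreted enzyme that makes lysophosphatidic acid. Cells of carcinoma lines grown in mice are commonly a mixture of transcriptional states.

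The score that chose the cells was continuous, with no gap at the threshold. The lowest selected score was 1.36 UMIs per 10000, the highest score left out rounded to the same 1.36, and 55 selected cells lay within 10% above the threshold beside 62 cells within 10% below it. Of the other tumour-like cells, 5581 (84.7%) had no UMI of the 4 genes. The median number of such UMIs per selected cell was 6 for the control and 3 for the knockdown library. Selected cells with only 1 or 2 such UMIs numbered 38 of the control (12.5%) and 123 of the knockdown selection (28.7%), so membership of these rests on very few molecules. The median score was 2.85 in the control library, where the highest reached 27.6, and 2.53 in the knockdown library, where the highest reached 21.9.

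**Figure D1:**
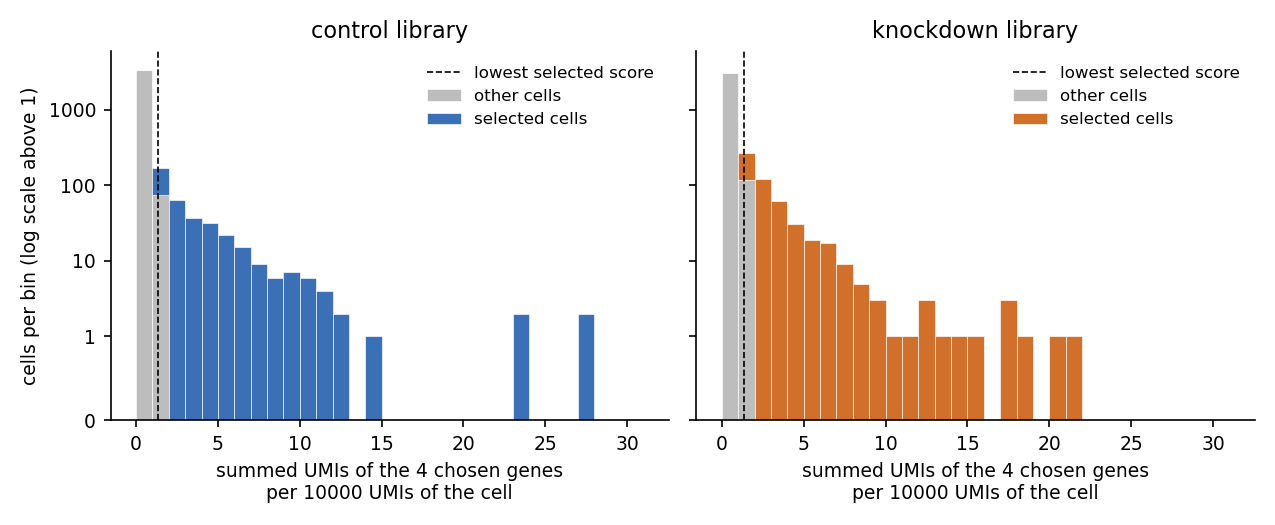
Histogram of the summed Csmd3, Robo2, Mme and Adgrl3 UMIs per 10000 UMIs (horizontal axis) against the number of non-cycling gated cells (vertical axis, log scale), by library, with selected cells coloured, other cells grey and the lowest selected score of 1.36 as a dashed line. Most other cells sit at 0, and the selected cells form a continuous tail that ends at 27.6 for control and at 21.9 for knockdown cells.

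The control library held 11977 cells and 165824226 UMIs and the knockdown library 12853 cells and 138402860 UMIs, with medians of 10312 and 7496 UMIs per cell. The libraries shared 37 cell barcodes, none of them among the selected cells. Where values are given in pairs, here and below, the control library comes first. The median selected cell had 18873 and 13086 UMIs, against 18586 and 15083 for the other tumour-like cells. Mitochondrial UMIs made up 2.12% and 2.16% of the median selected cell, beside 1.76% and 1.81% of the others. Thinned to 5000 UMIs, selected cells had a median of 2141 and 2151 detected genes, against 2049 and 2083. Scrublet, a doublet caller, marked 1013 control cells and only 1 knockdown cell at its own threshold, so it did not work on the knockdown library and doublets were not removed. A removal of the highest Scrublet scores by rank would have taken 12 control and 9 knockdown selected cells (3.96% and 2.10%), near the 2.88% and 2.41% of the other tumour-like cells.

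Gfpt2, the gene targeted by the hairpin, had 61 UMIs in the selected control cells and 4 in the selected knockdown cells. Levels are given as CPM, the UMIs of a gene per 1000000 UMIs summed over the same cells, with exact Poisson 95% intervals that cover counting error only. On that scale Gfpt2 was at 10.0 CPM (7.66 to 12.9) in the control and 0.65 CPM (0.18 to 1.66) in the knockdown selection, a log2 ratio of -3.95 with a range of -6.18 to -2.20. In the other tumour-like cells it was at 0.98 and 0.64 CPM, a log2 ratio of -0.61. The range there, -1.48 to 0.24, spanned both signs, so a difference was not resolved in those cells. Of the 61 control UMIs, 52 lay in selected cells of cluster 5, described later, where 38.4% of cells carried the gene, and 8 lay in cluster 8. Within cluster 5 the 13 selected knockdown cells held 0 Gfpt2 UMIs, which allows up to 19.0 CPM by the exact Poisson interval, against 37.5 CPM (28.03 to 49.2) in the 73 control cells, so Gfpt2 was also lower inside the cluster. Outside clusters 5 and 8 the selected cells held 1 and 4 Gfpt2 UMIs, too few to compare. Gfpt1, the more widely expressed enzyme of the same step, was at 37.1 and 39.6 CPM.

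The genes that chose the cells are described first, and their levels are the rule and not a result. Csmd3 was at 224 CPM (212 to 236) in the selected control cells and 199 CPM (188 to 210) in the selected knockdown cells, against 5.95 and 8.17 CPM in the other tumour-like cells. Robo2 was at 23.0 and 30.1 CPM, against 0.74 and 1.19 CPM. Mme was higher in the control selection, at 97.7 and 44.0 CPM, against 1.29 and 2.08 CPM. Adgrl3 went the other way between libraries, at 26.4 and 51.0 CPM, against 1.05 and 2.70 CPM. Csmd3 supplied 60.4% and 61.4% of the rule UMIs, while the share of Mme was 26.3% and 13.6%, and that of Adgrl3 7.12% and 15.7%.

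Csmd3 gave the most UMIs of the 4 genes in 192 control (63.4%) and 263 knockdown (61.3%) selected cells. Mme led in 58 control (19.1%) and 42 knockdown (9.79%) cells, and Adgrl3 in 17 and 49 cells. Most cells carried only part of the combination. All 4 genes were detected together in 9 control and 10 knockdown cells, 3 of them in 42 and 60, 2 in 127 and 144, and 1 alone in 125 and 215. Csmd3 was detected in 87.1% of selected control and 80.4% of selected knockdown cells, and in 63.4% and 54.3% after thinning to 5000 UMIs. Among the other tumour-like cells the shares were 9.33% and 11.4% (2.73% and 3.62% thinned). Leukocytes gave 4.31% and 6.83% at lower median depths of 8272 and 7752.5 UMIs. In CPM, leukocytes were at 9.15 and 10.6, above the 5.95 and 8.17 CPM of the other tumour-like cells. The rule had taken the cells highest in these genes out of the latter, so this order is no result. The cycling gated cells, which the rule did not sort by these genes, were at 14.3 and 16.8 CPM. The leukocytes were cells past the same depth filter with at least 1 Ptprc UMI and at least 5 Lyz2 UMIs per 10000.

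Each rule gene was also read in cells chosen by the other 3 alone, so that its own counts played no part in the choice. Csmd3 was then at 134 CPM in the chosen control cells and 13.0 CPM in the rest, a 10.3-fold difference, and at 91.1 and 19.3 CPM in the knockdown library, a 4.73-fold difference. Robo2 was 15.2-fold higher in the control and 8.85-fold higher in the knockdown library. The fold for Mme was 13.9 and 6.20, and for Adgrl3 7.50 and 5.89. Each gene was thus higher in cells chosen by the summed other 3 in both libraries, which says nothing of single pairs. The rule genes were chosen with earlier results of these data known, so these folds describe the set and lend it no independent support. Each fold was larger in the control library, a difference that was not tested. The selection without Csmd3 shared 450 of its 732 cells (61.5%) with the full selection, while those without Robo2, Mme or Adgrl3 shared 688, 643 and 652.

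Enpp2, given as a marker but not used by the rule, was at 82.9 CPM (75.8 to 90.5) in the selected control cells and 9.43 CPM in the other tumour-like cells, a log2 ratio of 3.14 (2.90 to 3.37). For the knockdown library the levels were 46.6 CPM (41.4 to 52.3) and 15.5 CPM, a log2 ratio of 1.58 (1.31 to 1.85). It was detected in 33.0% and 20.5% of selected cells, against 8.40% and 9.93% of the others and 3.20% and 4.32% of leukocytes. At 5000 UMIs per cell the shares were 21.1% and 11.0%, against 4.04% and 5.23%. Knockdown over control, the log2 ratio of Enpp2 was -0.83 over all selected cells and 0.72 in the other tumour-like cells. By the clusters described later, the selected cells had 0.47 in cluster 5, 1.78 in cluster 8 and 0.22 in cluster 12. In the other clusters it was 0.62, and all these ranges but that of cluster 8 spanned both signs. The part of cluster makeup was not tested. Sema3c marked the selected cells less sharply, at 43.0 CPM against 19.0 CPM in the control and 87.4 CPM against 46.5 CPM in the knockdown library. Its log2 ratios of selected over other cells were 1.18 and 0.91. Sema3c was higher in the knockdown than in the control library in both cell sets, by a log2 ratio of 1.02 in the selected and 1.29 in the other tumour-like cells.

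The tumour-like label was set beside the markers of other cell types. The gate genes were required in both cell sets, so their levels check nothing. The gate also barred Ptprc and Cd3e and capped Lyz2 and the summed C1q genes. Low T cell, NK cell and macrophage sums thus partly follow from the gate in both cell sets. Hmga2, an architectural chromatin protein of embryonic and tumour cells, was at 206 and 202 CPM in the selected cells, against 222 and 218 CPM in the others. Igf2bp2, an RNA-binding protein, was at 72.4 and 57.5 CPM, against 71.0 and 61.8 CPM. Tnfrsf12a, the TWEAK receptor, was lower, at 98.5 and 130 CPM, against 199 and 195 CPM. Xist, the RNA of the inactive X chromosome, was at 3.12 and 1.95 CPM in the selected cells and at 322 and 266 CPM in the leukocytes, so the selected cells shared the near-zero Xist level of the other tumour-like cells (2.50 and 3.61 CPM).

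The 12 T and NK cell markers summed to 6.2 and 4.2 CPM in the selected cells, with Cd3e, which the gate bars, and Prf1 at 0, beside 5.9 and 8.5 CPM in the others. The 9 endothelial markers summed to 8.0 and 8.4 CPM, with Cldn5, Emcn, Kdr and Vwf at 0. The 15 macrophage markers summed to 326 and 359 CPM, beside 298 and 349 CPM, with none at 0 in the control and 1 at 0 in the knockdown selection. Among them, Plac8 was higher in the selected cells, with log2 ratios of 1.41 and 1.36, while Lyz2, which the gate capped in both cell sets, was at 62.7 and 65.6 CPM against 59.7 and 67.4 CPM. The 9 Schwann and glial markers summed to 32.5 and 14.8 CPM, beside 11.5 and 10.4 CPM in the others, while Sox10, the defining factor, had 0 and 0.16 CPM. The 10 pericyte and smooth muscle markers summed to 83.7 and 42.4 CPM, beside 46.6 and 50.9 CPM, most of it Cspg4, with Abcc9, Myh11, Notch3 and Rgs5 at 0. The 14 neuron and neuroendocrine markers summed to 48.6 and 35.6 CPM, below 74.0 and 76.9 CPM in the others. No epithelial gene of a list of 14, among them Cdh1 and Epcam, reached the level needed for comparison.

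Host fibroblast markers moved with the selected cells. The 10 markers summed to 2787 CPM in the selected control and 1577 CPM in the selected knockdown cells, beside 1094 and 1317 CPM in the others. Most of the sum was Dcn (decorin, a matrix proteoglycan), at 2441 and 1297 CPM against 922 and 1125 CPM, and none of the 10 markers was at 0 in both libraries. Gsn, an actin-severing protein, was at 160 and 104 CPM against 52.2 and 55.0 CPM, and Pdgfra, a growth factor receptor, at 73.4 and 75.4 CPM against 42.3 and 50.9 CPM. Lum, Pi16 and Cygb, which mark fibroblasts and stellate cells, were at 2.63, 0.16 and 0.16 CPM in the selected control cells and 0.81, 0.16 and 0 CPM in the selected knockdown cells. Xist was near 0 in the same cells, as given above. The part of host cells in the fibroblast genes was not tested.

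**Figure D2:**
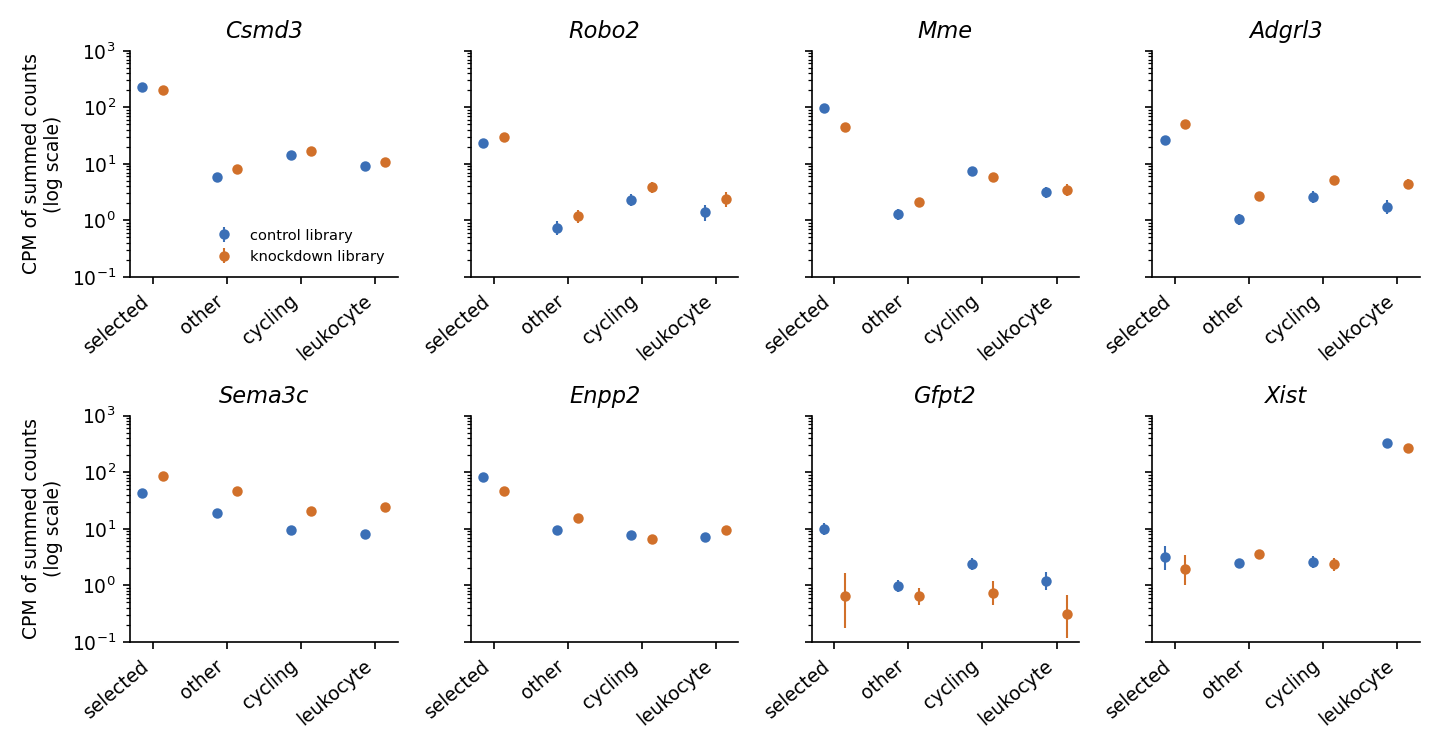
Level in CPM (log axis) with exact Poisson 95% bars of the rule genes, Sema3c, Enpp2, Gfpt2 and Xist in selected, other, cycling and leukocyte cells of each library. Enpp2, outside the rule, lies at 82.9 and 46.6 CPM in the selected cells against 9.43 and 15.5 CPM in the others, while Xist is at 3.12 and 1.95 CPM in the selected cells and 322 and 266 CPM in the leukocytes.

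Of the non-cycling gated cells, 8.10% (7.24 to 9.02) were selected for the control library and 11.98% (10.9 to 13.1) for the knockdown library, with exact Clopper-Pearson 95% intervals. The ratio was 1.48, with a range of 1.21 to 1.81. The excess in the knockdown library lay among cells with few rule UMIs. At 5000 UMIs per cell, 10.1% of control and 14.7% of knockdown cells had at least 1 rule UMI, 4.06% and 5.44% had at least 2, 2.32% and 2.15% had at least 3, and 0.80% and 0.56% had at least 5. With the top 5% in place of the top 10% the ratio was 1.29 (0.964 to 1.72), and with at least 2 rule genes detected it was 1.26 (0.951 to 1.66). The share therefore was larger in the knockdown library for the selection as defined, and its interval reached 1 under the stricter choices.

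The selected cells were compared with the other tumour-like cells within each library, over 8238 genes with a mean of at least 10 CPM. Because the same contrast chose the cells, counts are descriptions. In both libraries 59 genes (0.716%) were more than 2-fold higher and 4 genes (0.0486%) more than 2-fold lower in the selected cells. The median log2 ratio over all genes was 0.08 in both libraries. Scaling by trimmed means (TMM) moved every log2 ratio down by 0.18 for the control and 0.15 for the knockdown library and gave 36 higher and 12 lower genes. Any excess in both libraries, however small, was found for 47.9% of the genes, and any deficit for 25.1%. Under TMM scaling this turned, with 1944 genes higher and 3988 lower in both of 8238, so counts of small differences within lists depend on the scaling.

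Ptprk, a receptor tyrosine phosphatase that binds its like on neighbouring cells, was at 55.2 and 67.9 CPM in the selected cells against 7.50 and 13.0 CPM in the others, with log2 ratios of 2.88 and 2.38. Pcdh9, a protocadherin, was at 136 and 149 CPM against 33.0 and 44.3 CPM (2.04 and 1.75), and Pcdh7, another protocadherin, had log2 ratios of 2.17 and 1.47. Mmp16, a membrane-bound matrix metalloproteinase, was at 42.7 and 32.6 CPM against 5.73 and 9.67 CPM.

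Tmtc2, a protein of the endoplasmic reticulum, was at 82.1 and 63.8 CPM against 12.4 and 18.8 CPM, with log2 ratios of 2.73 and 1.76. Aspn (asporin, a small matrix proteoglycan) was at 34.1 and 73.3 CPM against 10.2 and 17.1 CPM. Dkk2, a secreted modulator of Wnt signalling, was at 15.8 and 48.7 CPM against 5.68 and 14.8 CPM. Transcriptional regulators in the same group were Zfhx4 (log2 ratios of 2.84 and 2.14), Runx1t1 (2.51 and 1.37), Klf12 (2.19 and 1.40) and the imprinted gene Plagl1 (1.43 and 1.46). Without the selected cells of clusters 5 and 8, the smaller ratio for Plagl1 was 0.23, while without cluster 8 alone it was 1.46. Ccdc148 (3.18 and 2.19) and Trp53i11 (1.42 and 1.49) were also among the named genes on the higher side. Selected cells of cluster 12, described later, were also set against that cluster's own other cells. The smaller ratio was then 0.94 for Ptprk, 0.63 for Ccdc148, 0.60 for Dkk2 and 0.70 for Pcdh7. For Enpp2 it was 1.34 and for Runx1t1 1.27. With cluster 12 alone, 31 of 43 values of named genes moved outside the range of the reported value.

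Of the 4 genes more than 2-fold lower in both libraries, 3 had assigned names. Cryab, a small heat-shock chaperone that leads another tumour-like programme, was at 28.7 and 28.3 CPM in the selected cells against 74.5 and 121 CPM in the others. Hmga1, an architectural chromatin protein, was at 36.6 and 33.5 CPM against 93.3 and 74.9 CPM. Ptn (pleiotrophin, a heparin-binding growth factor) was at 279 and 190 CPM against 582 and 408 CPM. Within cluster 12 alone, against that cluster's own other cells, the smaller ratio turned to 0.44 for Cryab and 0.37 for Ptn. For Hmga1 it was -0.66 there. The fourth was the gene model Gm20744, outside the rule for named genes and mentioned after its values were seen, at 5.09 and 3.25 CPM against 24.1 and 18.9 CPM.

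Smaller deficits in both libraries were seen for S100a10, the annexin A2 partner, at 713 and 709 CPM against 1489 and 1302 CPM. Plaur, the urokinase receptor, had log2 ratios of -1.01 and -0.92, and Hbegf, a ligand of the EGF receptor, -0.92 and -0.95. Tenm2, a teneurin, stood at 2.30 CPM in the selected control cells against 22.9 CPM in the others, a log2 ratio of -3.32, and for the knockdown library at 8.61 against 16.9 CPM, with a ratio of -0.97. Klra4 (-1.31 and -0.91), Pbk (-1.11 and -0.88) and Amigo2 (-0.93 and -0.88) were the other named genes on the lower side.

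**Figure D3:**
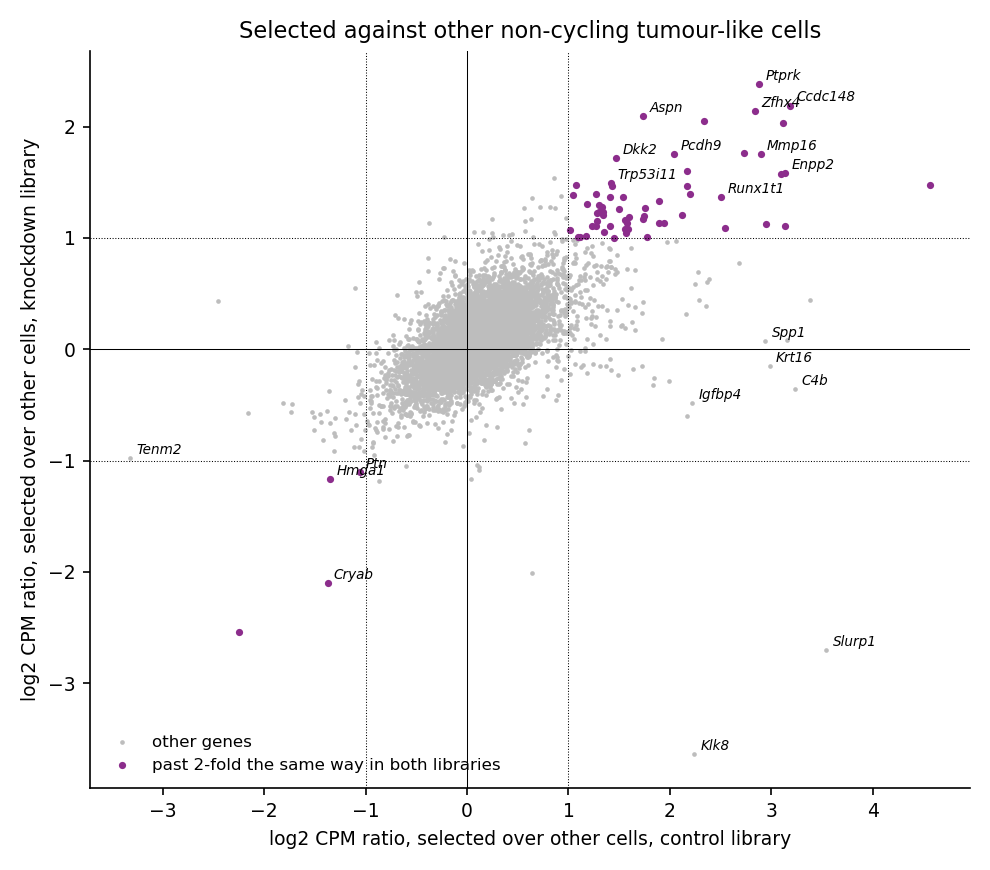
Each point is a gene, placed by its log2 CPM ratio of selected over other tumour-like cells in the control library (horizontal axis) and the knockdown library (vertical axis), with genes past 2-fold the same way in both coloured. The 59 higher genes extend further along the control axis, as for Enpp2 at 3.14 against 1.58, and only 4 genes lie past 2-fold on the lower side.

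Axon guidance receptors other than Robo2 were read from fixed lists. Of 18 Slit, Robo and netrin genes, Robo2 included, 6 outside the rule passed the level filter. Of these, 1 was more than 2-fold higher in both libraries, beside 0.716% of all genes. It was Robo1, the paralogue of Robo2, at 36.3 and 36.9 CPM against 14.7 and 15.1 CPM, with log2 ratios of 1.30 and 1.29. Ntn1, the secreted netrin-1, had ratios of 1.24 and 0.84. The list median was 0.05 and 0.60, beside 0.08 over all genes, and -0.13 and 0.45 under TMM scaling. Of 31 semaphorin, plexin and neuropilin genes, 10 passed the filter and none was past 2-fold in both.

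Of 22 ephrin and Eph genes, 4 passed the filter and none was past 2-fold. Epha7, an Eph receptor below the filter and nearly absent elsewhere, was at 10.2 and 9.42 CPM against 0.98 and 1.31 CPM, with log2 ratios of 3.37 and 2.85. Efna5, an ephrin ligand also below the filter, was at 10.0 and 19.3 CPM against 4.03 and 4.79 CPM. Among 11 latrophilins, teneurins and FLRT proteins, which bind one another across cell contacts and include Adgrl3, 6 outside the rule passed the filter and 2 were more than 2-fold higher, beside 0.716% of all genes. They were Tenm3, a teneurin, at 81.4 and 93.4 CPM against 33.8 and 43.3 CPM, and Adgrl2, the paralogue of Adgrl3, at 11.99 and 20.3 CPM against 5.70 and 7.28 CPM. Flrt2 had log2 ratios of 1.29 and 0.70, and Tenm2 was lower, as given above. Over the list 4 of 6 genes were higher and 1 lower in both libraries, beside 47.9% and 25.1% of all genes, with medians of 0.68 and 0.48. Under TMM scaling 4 were higher and 2 lower, with medians of 0.49 and 0.32.

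The CUB and sushi relatives of Csmd3 were mostly too low to compare. Csmd1 was at 0.66 and 0.32 CPM and Csmd2 at 0.33 and 0 CPM in the selected cells, and of 11 such genes, Csmd3 included, Susd6 alone outside the rule passed the filter, with log2 ratios of 0.79 and 0.46. Of 16 surface peptidases, a list that includes Mme, 4 outside the rule passed the filter and none was past 2-fold. In the autotaxin pathway, 8 of 13 genes passed. Besides Enpp2 itself, the receptor Lpar1 was higher, at 50.4 and 62.5 CPM against 23.6 and 31.0 CPM, with log2 ratios of 1.09 and 1.01. Over the list 3 genes were higher and 4 lower in both libraries, beside 47.9% and 25.1% of all genes, with medians of 0.01 and -0.04, or 2 higher and 5 lower with medians of -0.18 and -0.20 under TMM scaling. Plpp3, a phosphatase that degrades this lipid, was higher in the control library alone (1.73) and at -0.15 in the knockdown library.

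Of 18 fibroblast matrix genes 14 passed the filter, and 10 of these were higher and 2 lower in both libraries, beside 47.9% and 25.1% of all genes, or 6 higher and 4 lower under TMM scaling, beside 1944 and 3988 of 8238. Among them 1, Col5a2, a fibrillar collagen chain, was past 2-fold higher in both, beside 0.716% of all genes. It was at 105 and 130 CPM against 42.5 and 55.3 CPM. Col3a1, another fibrillar collagen chain, was at 3243 and 2753 CPM against 1361 and 1641 CPM (1.25 and 0.75). The list median was 0.49 and 0.18, or 0.30 and 0.03 with TMM scaling. Among 16 mesenchymal genes none of the 14 that passed was past 2-fold in both. Of these, Prrx1, a mesenchymal transcription factor, had ratios of 1.41 and 0.79, and Zeb2, a repressor of epithelial genes, 0.75 and 0.63. Beside these genes, the summed host fibroblast markers were higher in the selected cells, as given above.

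Cell cycle genes were lower in the selected cells, although cells with high mitotic counts had been removed from both sets. All 20 S phase genes were lower in both libraries, with medians of -0.59 and -0.31, beside 25.1% of all genes lower in both. All 20 were also lower under TMM scaling, as were 3988 of the 8238 genes. Pcna, the replication clamp, was at 110 and 118 CPM against 164 and 163 CPM, and Mcm3, of the replicative helicase, at 44.7 and 56.5 CPM against 81.3 and 80.2 CPM. Of 20 G2 and M phase genes outside the rule, 16 passed the filter and 15 were lower in both, against the same background, with medians of -0.56 and -0.51. Birc5 (survivin) had ratios of -0.88 and -0.65, and the exception was the checkpoint kinase Bub1b, with 0.20 and -0.18. No gene of either list was past 2-fold, so these deficits were shared and small.

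Of the 20 ribosomal protein genes 18 were lower in both libraries by small amounts, with medians of -0.24 and -0.16, and all 20 were lower under TMM scaling, beside the shares of all genes just given. The nuclear RNA Malat1 was higher, with log2 ratios of 0.30 and 0.51. Ribosomal protein UMIs made up 22.1% and 21.5% of the median selected cell, against 25.3% and 23.5% of the others, and Malat1 41.1 and 49.4 UMIs per 10000, against 31.7 and 33.5. Of 12 NRF2 targets that passed the filter, 9 were higher and 1 lower in both libraries, beside 47.9% and 25.1% of all genes. Under TMM scaling 4 were higher and 2 lower, beside 1944 and 3988 of 8238. Among the 12, only Slc7a11, the cystine transporter, was past 2-fold in both, beside 0.716% of all genes on the higher side. It was at 53.5 and 39.6 CPM against 15.9 and 16.5 CPM. Of 16 glycolysis and hypoxia genes 6 were higher and 9 lower in both, beside 47.9% and 25.1% of all genes, with medians of -0.09 and -0.05. Under TMM scaling 2 were higher and 11 lower, with medians of -0.28 and -0.20. Of 10 hexosamine pathway genes that passed the filter, 8 were higher and 1 lower, beside the same shares of all genes, with medians of 0.30 and 0.20. Under TMM scaling 7 were higher and 1 lower, beside 1944 and 3988 of 8238, with medians of 0.11 and 0.05.

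Many of the genes that were higher in the selected cells are long, as Csmd3, Robo2 and Adgrl3 are. Gene spans were taken from RefSeq for GRCm38.p6, which held 7933 of 7979 symbols (99.4%), while the build used for the deposited counts is not given in the sources used here. The 53 genes with a symbol there that were past 2-fold higher in both libraries had a median span of 172 kb, against 24.9 kb over all. In genes of up to 20 kb, 6 of 3413 (0.18%) were past 2-fold higher, in genes of 20 to 100 kb 10 of 3449 (0.29%), in genes of 100 to 300 kb 21 of 886 (2.37%) and in longer genes 16 of 185 (8.65%). Median log2 ratios in these classes were 0.05, 0.07, 0.17 and 0.24 in the control library, and -0.00, 0.10, 0.26 and 0.43 in the knockdown library. The share of genes past 2-fold in both libraries together was thus higher in the longer classes, as was the median in each library. Of a fixed list of 40 very long genes, which includes Csmd3, Robo2 and Adgrl3, 15 outside the rule passed the filter. Of these 15, 5 were past 2-fold higher in both libraries, beside 0.716% of all genes. These were the synaptic adhesion gene Sdk1 (141 and 211 CPM against 58.2 and 90.5 CPM), the glypican Gpc6, Pcdh9, Robo1 and Tenm3. The list median was 0.17 and 0.60, or -0.02 and 0.45 with TMM scaling, so in the control library its sign depended on the scaling. The Malat1 and mitochondrial shares given above were higher in the same cells, and their part in the excess of long genes was not tested.

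Neighbouring genes were read in the same way. Among the 20 measured genes nearest to Csmd3, 1, which was Enpp2, was past 2-fold higher, and the median log2 ratio was -0.10 and 0.05. Between Csmd3 and Enpp2 lay 6 measured genes. Of the 20 nearest Robo2, Pros1, which encodes the anticoagulant protein S, and Robo1 were past 2-fold. None was among those nearest Mme, Adgrl3 and Sema3c. The share of all compared genes past 2-fold higher in both libraries was 0.716%.

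Across the 7324 non-cycling gated cells at 5000 UMIs each, the genes outside the rule most like the score were Ptprk (Spearman correlation of 0.21), Pcdh9 (0.20), Fn1 (0.19) and Tmtc2 (0.18), among 7782 genes. Trps1, Matn2, Col3a1, Csta2, Shisal2b and Rorb followed at 0.17 to 0.14. These correlations are weak, share the sparse counts of each cell, and describe the order only.

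The selected cells did not form a single group. The non-cycling gated cells fell into 13 Leiden clusters, computed without the rule genes, and 3 of these held at least 25% selected cells. Cluster 12 held 248 selected of 686 cells, 42 of 172 in the control (24.4%) and 206 of 514 in the knockdown library (40.1%). Cluster 5 held 73 selected of 155 control cells (47.1%) and 13 of 86 knockdown cells (15.1%), and cluster 8 held 92 of 101 control cells (91.1%) and 5 of 13 knockdown cells (38.5%). Cluster 8 was drawn to 88.6% from the control library, so it may be that library and not a type. The 3 clusters together took 431 selected cells (58.9%), and 96 control (31.7%) and 205 knockdown (47.8%) selected cells lay scattered in the other 10 clusters, of which none exceeded 17.7% over both libraries.

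The makeup of the selection differed between libraries. In the control library, cluster 8 gave 30.4% of the selected cells, cluster 5 24.1% and cluster 12 13.9%. In the knockdown library, cluster 12 gave 48.0%, cluster 1 16.8% and cluster 2 10.3%, while cluster 5 gave 3.0% and cluster 8 1.2%. Among the 15 nearest neighbours of a selected cell, 50.6% and 32.7% were selected, against 3.97% and 6.47% for the other cells. Without cluster 8 the ratio of the shares of selected cells, knockdown over control, was 2.05 (1.64 to 2.57), and without clusters 5 and 8 it was 2.98 (2.31 to 3.87). Both leave-out choices were made after the data were seen.

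**Figure D4:**
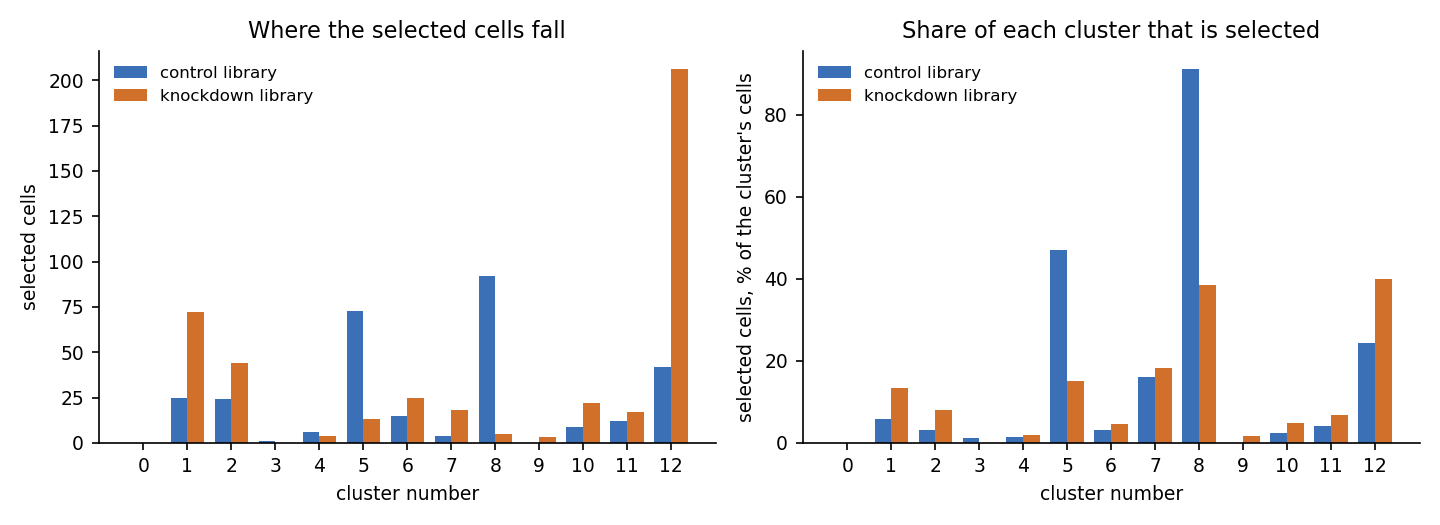
Bars give, for each Leiden cluster of the non-cycling gated cells and each library, the number of selected cells and the percent of the cluster that was selected. Selected cells concentrate in clusters 5 and 8 in the control library (73 and 92 cells) and in cluster 12 in the knockdown library (206 cells).

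Csmd3 was high in the selected cells of all 3 clusters, and many other genes differed between them. Selected cells of cluster 5 had 323 and 195 CPM of Csmd3 but only 0.72 and 25.7 CPM of Mme, from 1 and 5 UMIs. They carried the keratin Krt16 at 880 and 77.1 CPM, against 2.92 and 0 CPM in cluster 8 and 13.7 and 4.35 CPM in cluster 12. The chemokine Ccl5 was at 2016 and 1871 CPM in cluster 5, beside 121 and 108 CPM in the other tumour-like cells. In the control library the same cells also had 438 CPM of the skin protease Klk8, 764 CPM of the secreted phosphoprotein Spp1 and 299 CPM of the complement gene C4b. Markers of other cell types were also high there. The Schwann and glial markers summed to 100 and 25.7 CPM in cluster 5, beside 11.5 and 10.4 CPM in the other tumour-like cells, with Cdh19, a glial cadherin, at 62.1 CPM in the control cells. The pericyte and smooth muscle markers summed to 231 and 92.5 CPM, beside 46.6 and 50.9 CPM, and the part of such cells was not tested. Cluster 5 thus had the highest Krt16, Ccl5 and, for the control library, Csmd3 of the 3 clusters.

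Enpp2, Apod and Dcn were higher in cluster 8 than in the other selected cells of either library. Its selected cells had 199.6 CPM of Mme and 152 CPM of Enpp2 in the control library, and the 5 knockdown cells had 15.9 CPM of Mme, a rule gene, from 1 UMI, and 525 CPM of Enpp2. Apod, a lipid-binding apolipoprotein, was at 349 and 429 CPM, beside 32.6 and 45.6 CPM in the other tumour-like cells, and Dcn at 4027 and 4851 CPM. Igfbp4, which binds insulin-like growth factors, was at 603 and 111 CPM, and the laminin chain Lama4 was at 86.6 CPM in the control cells. Hmga2, one of the gate genes, was at 88.6 CPM in the control cells, beside 335 CPM in cluster 5, 199 CPM in cluster 12 and 222 CPM in the other tumour-like cells. Control leukocytes were at 84.3 CPM of Hmga2, with a UMI in 23.4% of cells against 62.0% of the control cells of cluster 8, and Scrublet marked 22.7% of these leukocytes. The host fibroblast markers summed to 4478 and 5042 CPM in cluster 8, beside 2083 and 1943 CPM in cluster 5 and 1735 and 1138 CPM in cluster 12, while Xist was at 4.38 and 0 CPM.

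Cluster 12, the main source of selected knockdown cells, carried Aspn at 163 and 132 CPM, beside 0.72 and 5.14 CPM in cluster 5 and 27.7 and 31.8 CPM in cluster 8. Ogn (osteoglycin, another small matrix proteoglycan) was at 105 and 142 CPM and Dkk2 at 33.6 and 70.6 CPM there. Csmd3 was at 118 and 217 CPM, and Mme at 92.1 and 65.6 CPM. Ptprk, at 84.6 and 97.9 CPM, was near its level in cluster 8 (91.5 and 111 CPM) and above that in cluster 5 (33.2 and 36.0 CPM). Selected cells in the other clusters had 180 and 179 CPM of Csmd3 and 18.4 and 33.2 CPM of Ptprk, between cluster 5 and the 7.50 and 13.0 CPM of the cells that were not selected. Pcdh9 was high in every group of selected cells, at 160 and 103 CPM in cluster 5, 129 and 318 CPM in cluster 8, 168 and 135 CPM in cluster 12 and 112 and 166 CPM elsewhere.

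**Figure D5:**
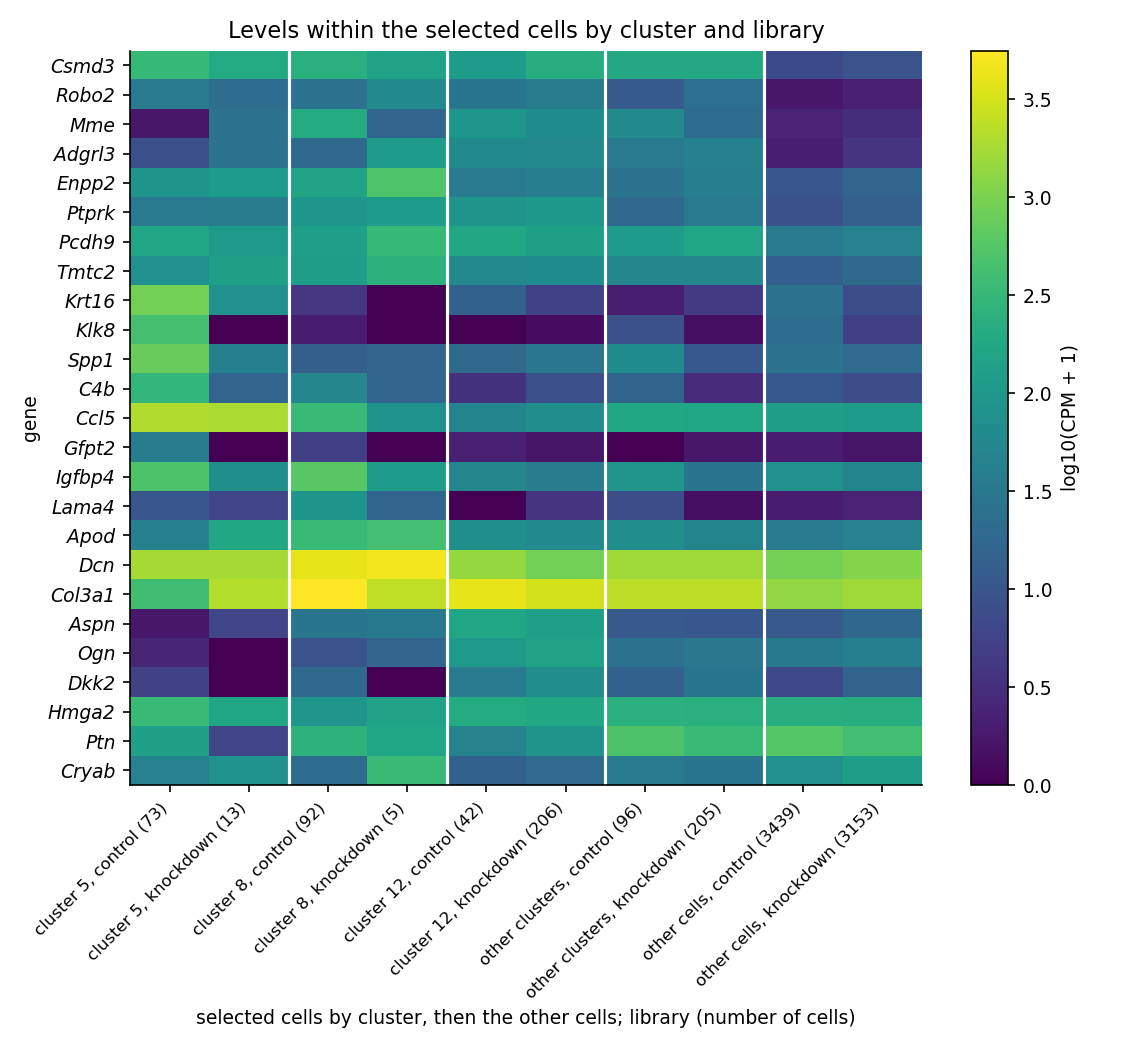
Heat map of log10(CPM + 1) for 25 genes (rows) in selected cells of clusters 5, 8, 12 and the other clusters and in the other tumour-like cells (columns), by library. Csmd3 is high in all selected columns (118 to 323 CPM), Krt16 stands out in control cluster 5 (880 CPM), Apod in cluster 8 (349 and 429 CPM) and Aspn in cluster 12 (163 and 132 CPM).

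Between the libraries, 48 of 8373 genes (0.573%) were more than 2-fold higher and 86 (1.03%) more than 2-fold lower in the selected knockdown than in the selected control cells. In the other tumour-like cells the same counts were 7 of 8037 (0.0871%) and 3 (0.0373%), from sums over many more cells. The median log2 ratio was 0.02 in both sets. Without the selected cells of clusters 5 and 8, an alternative chosen after seeing the data, 35 genes were higher and 13 lower, from 138 control and 411 knockdown cells. Without cluster 8 alone, 48 were higher and 85 lower. The part of cluster makeup in these counts was not tested. Fewer cells of a state and less RNA per cell cannot be told apart in these sums, and the libraries also differ in depth.

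The lower genes were led by Klk8, Slurp1 and Krt16. Klk8 had 623 UMIs in the selected control cells (102 CPM) and 2 UMIs in the selected knockdown cells (0.32 CPM), a log2 ratio of -8.30 (-11.46 to -6.33), beside -2.42 in the other tumour-like cells. Slurp1, a secreted epidermal protein, had 346 and 2 UMIs, a log2 ratio of -7.45 (-10.65 to -5.44). Krt16 was at 203 and 6.17 CPM, a log2 ratio of -5.04, beside -1.91 in the other cells. All 3 genes belong to cluster 5 in the control library, where they were concentrated. Without clusters 5 and 8 the log2 ratios were -3.96 for Klk8, -2.15 for Slurp1 and -0.33 for Krt16. The Slurp1 value is too thin to read, with 1 UMI in the control cells of cluster 12 and 1 in those of the other clusters. Its range within cluster 12, -9.78 to 5.78, spanned both signs. Klk8 had 14 UMIs in the control cells of the other clusters and 0 in those of cluster 12.

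The complement gene C4b was at 91.0 and 5.20 CPM (-4.13), and Spp1 had 1218 and 126 UMIs (-3.29). Without clusters 5 and 8 these ratios were -1.25 and -1.35. Within cluster 12 they were 1.52 and 0.60, with ranges that spanned both signs. Within cluster 5 alone the log2 ratios were -4.28 for C4b, -4.21 for Spp1 and -3.51 for Krt16, from 73 control and 13 knockdown cells. Ccl5 was at -0.11 there, but with a UMI in 95.9% of the control and 46.2% of the knockdown cells. The cells of this cluster also differed the other way, with log2 ratios of 2.40 (2.13 to 2.66) for Col3a1 and 3.18 (1.99 to 4.39) for Col5a2. Igfbp4 was at 351 and 34.6 CPM (-3.34), with -2.80 in cluster 5, -2.44 in cluster 8, -0.47 in cluster 12 and -1.75 in the other clusters. The range for cluster 12, -1.18 to 0.25, included 0. Lama4 (-4.10), the extracellular protein Sparcl1 (-3.63), the synaptotagmin Syt13 (-3.32) and Arhgap6 (-4.66) were the other named genes on the lower side. Without clusters 5 and 8 their ratios were -1.53 for Lama4, -1.09 for Sparcl1, -2.15 for Syt13 and -0.83 for Arhgap6.

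Between libraries, the genes past 2-fold in the guidance, matrix and mesenchymal lists were 1 higher of 7 measured Slit, Robo and netrin genes, 2 higher and 1 lower of 11 semaphorin genes and their receptors, 1 higher of 15 fibroblast matrix genes and 1 lower of 14 mesenchymal genes, beside 0.573% and 1.03% of all genes. Of other lists, 1 of 8 autotaxin pathway genes and 1 of 12 NRF2 targets were lower, 1 of 16 very long genes was higher, and of 8 genes of other tumour-like programmes 2 were higher and 3 lower. Atf3, a stress-induced factor in the unfolded protein and immediate early lists, was higher, and the rule gene Mme, Mir99ahg and Cspg4 were lower. Mmp2, the gelatinase A, was at 139 CPM in the selected control and 27.6 CPM in the selected knockdown cells (-2.33), and Plpp3 at 124 and 33.0 CPM (-1.92). Fth1, the ferritin heavy chain, was at 8481 and 3813 CPM (-1.15), beside 3781 and 3777 CPM in the other tumour-like cells. The repulsive ligand Slit2, which binds Robo receptors, was higher in the knockdown selection, at 30.4 and 70.3 CPM (1.21). Sema3a, a repulsive semaphorin, was also higher, at 32.7 and 68.1 CPM (1.06), and Sema5a was lower (-1.23). Each of these 6 genes had a ratio closer to 0 in the other tumour-like cells, as with 0.25 for Slit2 and 0.45 for Sema3a, a contrast that was not tested.

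The genes higher in the knockdown selection were led by Col1a2, a collagen chain, at 3.28 and 18.5 CPM, a log2 ratio of 2.50 (1.59 to 3.47). The zinc finger gene Zfp978 was at 6.73 and 33.5 CPM (2.31). Without clusters 5 and 8 the ratio was 1.37 for Col1a2 and 1.76 for Zfp978, so the order of these depends on the clusters. Within cluster 12 the ratios were 1.39 and 1.58. Grm3, a metabotropic glutamate receptor, was at 14.9 and 54.9 CPM (1.88), and it was also higher in the other tumour-like cells (1.10). Dkk2 was at 15.8 and 48.7 CPM (1.63) and likewise higher in the others (1.38). These receptor and ligand genes were thus higher in the knockdown tumour in both cell sets.

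Ogn was at 24.3 and 87.5 CPM (1.85), but within cluster 12, where it is concentrated, the log2 ratio was 0.44. Aspn, at 34.1 and 73.3 CPM, had a ratio of -0.31 within that cluster. Within cluster 12 the log2 ratio was 2.68 (1.32 to 4.35) for Grm3 and 1.07 (0.34 to 1.86) for Dkk2. Grm3 had a UMI in 11.9% of these control and 34.5% of these knockdown cells, but Dkk2 in 28.6% and 21.4%, so its higher level went with a lower share of cells with a UMI. For Esr1, the oestrogen receptor, it was 1.48, with a range of -0.01 to 3.27 that reached 0. Over all selected cells Esr1 was at 11.3 and 35.6 CPM (1.65) and the prostaglandin synthase Ptgs2 at 7.88 and 25.3 CPM (1.68). Within cluster 12 the ratio for Ptgs2 was 0.01, and without clusters 5 and 8 it was 1.03. Itgbl1, an integrin-like secreted protein, was at 29.7 and 85.4 CPM (1.52). Med12l (1.76) and Lsmem1 (1.69) were the other named genes.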

How the data were processed

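The deposited values were raw UMI counts of 34097 genes in each cell of 1 control and 1 knockdown library, which the authors made with Cell Ranger, version 6.1.0 per the file headers and 3.1.0 per the submitters' processing notes. The genome build is not given in the sources used here. 0 columns belonged to other samples. Cells were chosen from these counts by the thresholds given in the results, and the members and gene lists were chosen with earlier results of these data known. UMIs were summed per gene, library and cell set and divided by all UMIs of that sum, times 1000000 (CPM). Genes with a mean of at least 10 CPM were compared, and a gene was counted when its ratio was past 2-fold. Intervals are exact 95% Poisson or Clopper-Pearson intervals, cover counting error only, and a ratio's range is what the pair of intervals allows. The floor for a count of 0 was 3 counts. With 1 library per group there is no replicate check, no p-value and no batch that could be separated from the group.

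For naming, genes were ranked by the smaller of the libraries' log2 ratios of selected over other cells (same sign in both), and the top 15 and bottom 10 were taken. Also named were the 10 highest and 10 lowest log2 ratios of knockdown over control whose range excluded 0, the 10 genes most correlated with the score, the rule, gate and marker genes, Gfpt1 and Gfpt2, and up to 5 members of each fixed list. Gene models without an assigned name were passed over, and 1 gene that met the rule is not reported here. For thinned values each cell was drawn to 5000 UMIs. Clustering took 2000 variable genes without the rule and mitochondrial genes, 30 principal components, 15 neighbours and Leiden resolution 1. The clusters are given by number only. Comparisons were tested on simulated data. The tools were scanpy 1.11.5, scikit-learn 1.9.0, pandas 2.3.3, scipy 1.17.1, numpy 2.4.6, igraph 0.11.9, matplotlib 3.10.9 and Python 3.11.15. Alternatives covered the threshold, the rule genes, thinning, doublet removal, scaling, the level filter, the weighting of cells and, chosen after seeing the data, the clusters. Gene names and spans came from RefSeq GRCm38.p6.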

Additional observations from a re-analysis of the deposited data

Results flagged for a closer look

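For Klk8 and Slurp1 the difference between selected and other tumour-like cells ran in opposite directions in the 2 libraries, and the difference was not tested. The log2 ratio of selected over other cells was 2.24 in the control library for Klk8 and -3.64 in the knockdown library (range -6.88 to -1.59, from 2 UMIs). For Slurp1 the ratios were 3.54 and -2.71, in the same order (knockdown range -6.02 to -0.57, from 2 UMIs). In the control library the selected cells of cluster 5 held 438 CPM of Klk8 and 248 CPM of Slurp1, and this cluster gave 24.1% of the selected control and 3.0% of the selected knockdown cells.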

How the results depend on the processing

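Of 853 values of named genes under alternatives, 707 stayed within the range of the reported value, 141 moved outside it and 5 values past 2-fold changed sign. All 5 came from the selected cells of cluster 12 alone. For C4b (1.52) and Spp1 (0.60) these are knockdown over control within that cluster, and their ranges, -0.99 to 5.15 and -0.43 to 1.73, include 0. For Plagl1 (-0.57), Cryab (0.44) and Ptn (0.37) they are selected over the cluster's own other cells. Under the same alternative 2 values not past 2-fold, counted among the 141, also changed sign, Tenm2 (0.18) and Plaur (0.31). The counts past 2-fold moved most. Genes higher in the knockdown selection numbered 48, and 100 with the top 5%, 16 with the top 20%, 131 in cluster 12 alone, 463 with no level minimum and 11 at 50 CPM. Lower genes numbered 86, and 36 with the top 20%, 52 without Csmd3, 13 without clusters 5 and 8, 506 with no minimum and 33 at 50 CPM. Genes higher in selected than other cells numbered 59, and 21 with the top 20%, 30 thinned, 37 in cluster 12 alone, 36 with TMM, 36 with median of ratios, 640 with no minimum and 9 at 50 CPM. Lower genes numbered 4, and 14 with the top 5%, 1 with the top 20%, 7 without Csmd3, 8 without Adgrl3, 1 thinned, 12 with at least 2 rule genes, 12 in cluster 12 alone, 12 with TMM, 13 with median of ratios and 96 with no minimum. The ratio of shares, 1.48, was 2.05 without cluster 8 and 2.98 without clusters 5 and 8, and 1.26 to 1.54 under the other 12 alternatives. The cause was not tested, except that a level minimum changes the genes counted. The top 10% taken within each library fixes the share and gives no ratio. The cluster alternatives were chosen after seeing the data. No paired analysis was possible because each group had 1 library. Low counts limit genes under 10 CPM and the 13 and 5 selected knockdown cells of clusters 5 and 8.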

Other observations

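Interferon-response genes were slightly higher in the selected cells. Of 19 measured genes of a list of 20, 14 were higher and 1 lower in both libraries than in the other tumour-like cells, with median log2 ratios of 0.32 and 0.28 beside 0.08 over all genes, of which 47.9% were higher and 25.1% lower in both. With TMM scaling 10 were higher and 5 lower in both and the medians were 0.13 and 0.13, while 1944 of all 8238 genes were higher and 3988 lower. Oasl1, an antiviral gene, was at 17.1 and 25.7 CPM in the selected cells against 8.46 and 12.2 CPM, with log2 ratios of 1.01 and 1.07. It alone of the list was past 2-fold in both libraries, beside 0.716% of all genes on the higher side. Irf7, a regulator of type I interferon genes, had ratios of 0.78 and 0.36. Of 13 class I antigen presentation genes 9 were higher in both, with medians of 0.24 and 0.04, but with TMM scaling 1 was higher and 2 lower in both, and the medians were 0.06 and -0.11.

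Of 15 unfolded protein response genes 4 were higher and 5 lower in both libraries, and of 14 immediate early genes that passed the level filter 9 were higher and 3 lower, beside 47.9% and 25.1% of all genes. Under TMM scaling the counts were 2 higher and 8 lower for the former and 4 higher and 5 lower for the latter. The lung marker Hopx, a homeodomain cofactor, was at 58.4 CPM in the selected control and 115 CPM in the selected knockdown cells against 40.6 and 60.5 CPM in the others, while the surfactant gene Sftpc and the lung factor Nkx2-1 were at 0 in the selected cells of both libraries.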
